A study of Mus musculus with 34 samples.

Results

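Solute carriers are the membrane proteins that move nutrients, ions, metals and metabolites into and out of cells and organelles, and their genes carry Slc symbols numbered by family. Some families work at the cell surface, such as the Slc7 and Slc38 amino acid carriers and the Slc2 glucose carriers, whereas Slc25 carriers mostly lie in the inner mitochondrial membrane and Slc35 carriers bring activated sugars into the endoplasmic reticulum and Golgi. Amino acid uptake is known to matter to mouse pluripotent cells, which depend on amino acids such as threonine, proline and glutamine for growth and chromatin state. The members here are all genes whose single annotated symbol begins with Slc and a number, with 3 of the 151 such symbols left out, which gave 148 members of 8251 genes measured. They comprise 30 amino acid carriers (with the related peptide, taurine, betaine and creatine carriers of the same families), 9 sugar carriers, 10 nucleotide sugar carriers, 20 ion carriers, 16 metal carriers, 20 Slc25 carriers, 40 carriers of other substrates and 3 partner proteins, which bear an Slc symbol but do not transport.

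RNA from mouse cells was read on Affymetrix arrays, and 32 arrays of 10 groups were used. Primordial germ cells (PGC), the embryonic precursors of eggs and sperm, came from C57Bl/6 embryos and were sorted for an Oct4/GFP reporter: 3 arrays of female and 3 of male cells at E13.5 (days of embryonic development), and 4 arrays of mixed sex at E11.5. Embryonic germ cells (EGC; 3 arrays, male, derived from E12.5 PGC, passage 19) and embryonic stem cells (ESC; 2 arrays, male, passage 9 to 14) were C57Bl/6 lines grown with LIF and serum. Inner cell mass (ICM; 3 arrays, mixed sex) was cut from E3.5 blastocysts by immunosurgery, replicate 1 from a cross with CD1 and replicates 2 and 3 from C57Bl/6 x C3H F1 embryos. The somatic groups, all C57Bl/6, were reporter-negative cells of the gonad and mesonephros at E11.5 (SGM; 4 arrays, mixed sex), E13.5 embryonic fibroblasts (MEF; 6 arrays, mixed sex, passage 2), neural stem cells of 8-week mice grown as neurospheres in EGF (NSC; 2 arrays, mixed sex, passage 1) and bone marrow stem cells of 8-week males sorted as side population cells with Sca-1+ and c-Kit+ but CD34- and Lin- staining (HSC; 2 arrays). The first 6 groups are called pluripotent below, as in the study's design, and the last 4 somatic. Values are the authors' log2 values, and 1 log2 unit is a 2-fold difference.

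Most of the listed markers followed the labels of the groups. Pou5f1 had group means of 9.38 to 10.68 in the pluripotent groups and 4.38 to 5.77 in the somatic groups. PGC and SGM were sorted by a reporter of this gene (Oct4), so there its level follows from the sort. Nanog, not used for sorting, had group means of 10.28 to 12.66 in the pluripotent groups and 6.41 to 6.98 in the somatic groups. Kit departed from its list, at 4.73 in EGC and 9.69 in HSC. Pax2 in SGM (7.11, up to 7.39 elsewhere), Lhx9 in SGM (5.58, up to 5.56) and Gfap in NSC (7.04, up to 7.15) did not stand out. Meis1 was higher in SGM (7.15) than in HSC (6.79), and Cd34 was highest in HSC (8.19), which were sorted as CD34-. Some facts about the arrays touch the results. In ICM replicate 3 the trophectoderm genes Eomes and Krt18 stood at 6.84 and 7.57, against 10.35 to 10.61 and 11.14 to 11.26 in the other two ICM arrays. The 66 control probe sets of NSC and HSC correlated with each other (r = 0.974 across probe sets) but at only 0.237 to 0.394 with the other 8 groups, whereas over the remaining 12422 probe sets NSC and HSC reached 0.800 to 0.929 with them. Over the 8 other groups, the actin control signal was higher at the 3′ than at the 5′ end by 0.386 (PGC E13.5 male) to 1.864 (EGC) on the log2 scale, and that of Gapdh by 2.653 (ESC) to 3.996 (ICM), in another order of groups. In bulk samples of this kind, fewer cells of a type and less RNA per cell cannot be told apart.

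**Figure D1:**
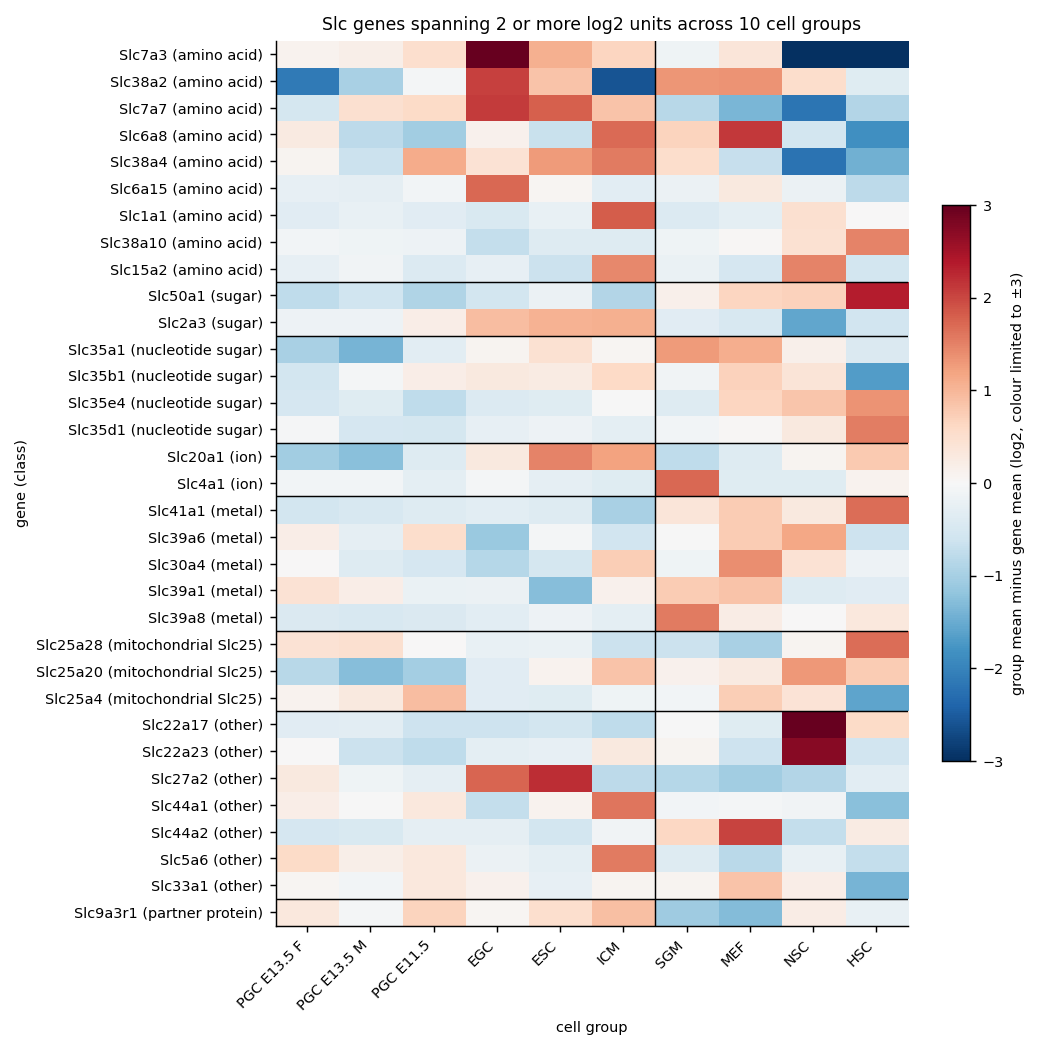
Group means of the 33 Slc genes whose highest and lowest of 10 group means differed by at least 2 log2 units, each relative to the gene's own mean over groups (colour, log2), with pluripotent groups left of the vertical line and somatic groups right of it. EGC carried the strongest signal of Slc7a3, NSC that of Slc22a17 and Slc22a23, and ICM the lowest of Slc38a2.

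Most Slc genes varied moderately. The difference between the highest and the lowest group mean had a median of 1.13 log2 units over the 148 members, against 1.30 over all genes. It reached 1 unit in 81 members (54.7%, against 60.7% of all genes) and 3 units in 9 (6.08%, against 11.8%). Of those 9, the amino acid class held 5: Slc7a3 (6.22), Slc38a2 (4.63), Slc7a7 (4.28), Slc6a8 (3.97) and Slc38a4 (3.77). The others were Slc22a17 (3.77), Slc22a23 (3.496), Slc27a2 (3.27) and Slc50a1 (3.25). The heatmap of the most variable members shows that no single group carried them all. HSC had the highest mean of the 10 groups for 31 members (20.9%, against 23.5% of all genes) and NSC the lowest for 32 (21.6%, against 17.8%).

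Slc7a3, which encodes a cationic amino acid carrier for arginine and lysine and lies on chromosome X, had the widest range. EGC arrays read 13.59, 13.40 and 13.33 and ESC arrays 11.24 and 11.29, whereas NSC arrays read 7.02 and 7.42 and HSC arrays 6.93 and 7.52. The 2 adult stem cell groups lay far below every other array. SGM (9.92 to 10.17) and MEF (10.37 to 10.82) were much closer to the E13.5 PGC, which read 10.12 to 10.43 in females and 10.35 to 10.40 in males. MEF therefore overlapped the germ cells, and the gene does not separate all pluripotent from all somatic arrays.

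Slc38a2 and Slc38a4 encode sodium-coupled neutral amino acid carriers of system A. Both lie on chromosome 15, and in mouse Slc38a4 is known as an imprinted gene expressed from the paternal copy. The RefSeq windows from 250 bases before to 50 bases after each start (GRCm38.p6, minus strand, chr15:96699679-96699978 for Slc38a2 and chr15:97055907-97056206 for the most upstream of 3 starts of Slc38a4) are printed because the pair differed in opposite directions between female and male germ cells, with each CG dinucleotide in capitals.
Slc38a2: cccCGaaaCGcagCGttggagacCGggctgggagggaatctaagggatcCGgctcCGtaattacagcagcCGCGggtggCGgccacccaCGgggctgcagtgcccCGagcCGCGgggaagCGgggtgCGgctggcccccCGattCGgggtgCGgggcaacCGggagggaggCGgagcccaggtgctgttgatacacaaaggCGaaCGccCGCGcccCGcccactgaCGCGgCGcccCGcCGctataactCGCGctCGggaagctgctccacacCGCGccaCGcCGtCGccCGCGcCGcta
Slc38a4: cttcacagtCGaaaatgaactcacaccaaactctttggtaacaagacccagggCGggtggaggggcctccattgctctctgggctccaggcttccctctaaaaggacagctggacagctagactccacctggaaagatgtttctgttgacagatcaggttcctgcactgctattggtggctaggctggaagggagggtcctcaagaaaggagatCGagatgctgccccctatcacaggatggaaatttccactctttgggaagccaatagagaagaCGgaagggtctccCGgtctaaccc
The Slc38a2 window holds 41 CG dinucleotides, as many as or more than which are found in 3.46% of all 32851 windows. The Slc38a4 window holds 5, a number reached by 62.0% of windows (median 7).

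Slc38a2 was high in the cultured pluripotent lines and low in ICM and E13.5 PGC. EGC arrays read 10.55, 10.58 and 11.15 and ESC arrays 9.51 and 9.64, whereas ICM arrays read 5.84, 6.55 and 5.99. Female E13.5 PGC read 6.62, 6.48 and 6.63, male E13.5 PGC 7.91, 7.99 and 7.31, and E11.5 PGC 8.44 to 8.99. SGM (9.55 to 10.40) and MEF (9.60 to 10.53) stood near the cultured pluripotent lines, with NSC at 8.99 and 9.46 and HSC at 8.72 and 7.98. The array holds 3 dimmer probe sets of Slc38a2 that did not follow this pattern; their differences for ESC over ICM were -0.42, -0.11 and -0.15, so every Slc38a2 value here rests on 1 probe set.

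Slc38a4 followed another order. ICM (10.40, 10.96 and 10.90), ESC (10.55 and 10.41) and E11.5 PGC (10.17 to 10.40) were highest, and EGC read 9.70, 9.54 and 9.68. Female E13.5 PGC (9.29, 9.36 and 9.22) lay above male E13.5 PGC (8.42, 8.66 and 8.58). Among somatic groups SGM (9.55 to 9.94) overlapped EGC, MEF (8.39 to 8.73) overlapped male PGC, and HSC (7.75 and 7.79) and NSC (7.15 and 6.82) were lowest.

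Slc7a7 encodes the light chain that pairs with Slc3a2 to exchange cationic for neutral amino acids. Its arrays ran from 10.64 to 10.77 in EGC, 10.38 to 10.44 in ESC and 9.06 to 9.71 in ICM. Among PGC, E11.5 arrays read 8.85 to 9.42, male E13.5 arrays 8.83 to 9.29, and female E13.5 arrays only 7.89 to 8.22. Female E13.5 PGC thus approached SGM (7.50 to 7.95), and MEF (7.11 to 7.60), HSC (7.73 and 7.76) and NSC (6.29 and 6.59) were lower or similar.

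Slc6a8, the creatine carrier, on chromosome X, was highest in MEF (10.42 to 10.74) and ICM (10.09, 10.89 and 9.71) and lowest in HSC (6.71 and 6.64). Its other probe set was nearly flat, with a difference of 0.30 for ESC over ICM where the brighter probe set gave -2.37. Slc27a2, which activates and takes up very long-chain fatty acids, was high in the cultured pluripotent lines alone: ESC read 8.58 and 8.83 and EGC 8.13, 8.32 and 8.26, against 5.20 to 7.19 over the arrays of the other 8 groups. The plot of amino acid and fatty acid carriers by array shows these 6 genes together.

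**Figure D2:**
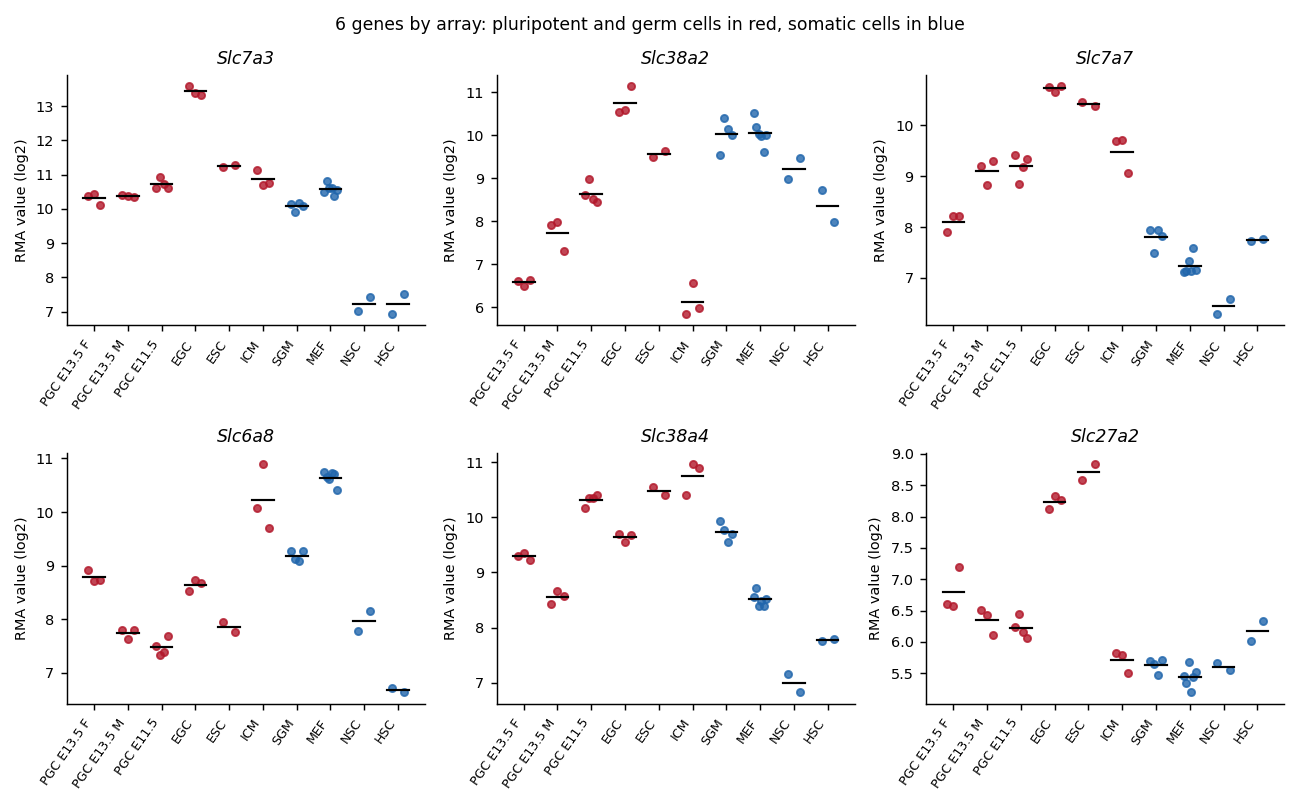
Authors' log2 values of Slc7a3, Slc38a2, Slc7a7, Slc6a8, Slc38a4 and Slc27a2 on each of 32 arrays (points) with group means (bars); pluripotent groups are red and somatic groups blue. Slc7a3 peaks in EGC at 13.33 to 13.59, Slc38a2 is lowest in ICM and female E13.5 PGC, and Slc27a2 is high in EGC and ESC.

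The pluripotent groups were then set against the somatic groups, as the mean of 6 group means over the mean of 4. In limma's test (adjusted p under 0.05 by Benjamini-Hochberg over all 8251 genes), 36 members were higher in pluripotent cells, where 29.1% of all genes were, and 56 were lower, where 34.9% of all genes were. As shares of the 148 these are 24.3% and 37.8%. At least 2-fold differences were called for 5 members higher (4.34% of all genes) and 6 lower (4.54%). The median difference was -0.05 over members and -0.01 over all genes.

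Of the 30 amino acid carriers, 7 were higher in pluripotent cells and 8 lower. Slc7a3 was 5.23-fold higher (2.39 ± 0.07 log2, SE; adjusted p = 1.25e-21 in limma's test), Slc7a7 was 4.58-fold higher (2.20 ± 0.08; adjusted p = 4.30e-19) and Slc38a4 was 3.00-fold higher (1.59 ± 0.06; adjusted p = 6.03e-19). Without NSC and HSC the Slc7a3 difference was 0.83 and that of Slc38a4 was 0.71, and both stayed called, so much of each rested on those 2 groups. Slc7a7 gave 1.98 without them. Slc7a5 and Slc7a6, light chains for large neutral and for cationic amino acids, were 0.32 and 0.37 higher on the log2 scale, though the Slc7a5 call was lost without SGM (0.10).

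Among the amino acid carriers that were lower, Slc38a2 was 2.27-fold lower in pluripotent cells (-1.18 ± 0.11; adjusted p = 4.07e-10), and its array values overlapped between the 2 sets of groups, as shown above. Slc1a4, a carrier of alanine, serine and cysteine, was 1.85-fold lower (-0.89 ± 0.09; adjusted p = 8.81e-10). Its group means were 8.83 to 9.42 in pluripotent cells, against 10.39 in MEF, 10.77 in NSC, 9.79 in SGM and 9.26 in HSC. Slc6a6, the taurine carrier, was 0.37 lower, but the call was lost without MEF (-0.11). The 15 amino acid carriers not called included Slc7a1 (0.00), the ubiquitous cationic carrier, Slc7a11 (0.07), which imports cystine, Slc3a2 (-0.07), Slc1a5 (-0.11), a glutamine carrier, and Slc6a8 (-0.16). Slc7a11 was dim, with means of 3.62 in ESC, 3.61 in ICM and 3.93 in SGM, against array medians of 7.17 to 7.37. Equal expression can therefore not be read from its small difference. Without NSC and HSC, Slc6a8 (-1.46), Slc1a5 (-0.29) and Slc7a1 (-0.23) were called lower, and without MEF Slc6a8 was called higher (0.52). For these genes the somatic groups lay on both sides. Slc3a2 averaged 11.72 ± 0.11 in HSC and 10.32 ± 0.17 in SGM (SD, n = 2 and 4), and its difference was called higher in pluripotent cells at 0.38 without NSC and HSC.

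The amino acid response element TGATGNAA (bound by ATF4 with C/EBP proteins), read on both strands with no overlap with another motif considered, occurs in 3.97% of all RefSeq windows. It is in the windows of 6 of the 121 members that have one, and of 3 of 22 amino acid carriers, shown with the match in capitals: Slc1a4 (chr11:20332699-20332728, reverse strand of the window), Slc7a11 (chr3:50443661-50443690) and Slc7a7 (chr14:54418067-54418096).
Slc1a4: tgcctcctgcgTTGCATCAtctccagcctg
Slc7a11: tctcatgtggcTGATGCAAacctggagaat
Slc7a7: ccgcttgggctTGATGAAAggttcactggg
These 3 carriers differed in sign between pluripotent and somatic cells, at -0.89, 0.07 (Slc7a11, dim and not called) and 2.20. The 3.97% is a share of windows, whereas members were counted as genes with a match in any window, so the rates are not alike.

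Sugar carriers were called in 8 of 9 cases, 4 higher and 4 lower. Slc2a3, a high-affinity glucose carrier of neurons and early embryos, was 2.34-fold higher in pluripotent cells (1.23 ± 0.07; adjusted p = 2.27e-14). ICM read 9.37 to 10.09, ESC 9.64 and 9.89, and EGC 9.42 to 9.77, whereas PGC read 8.35 to 9.05, against 8.32 to 8.49 in SGM, 8.03 to 8.58 in MEF, 8.08 and 8.19 in HSC and 7.13 and 7.20 in NSC. The early embryo and the cultured pluripotent lines thus lay clear of all somatic arrays, while the PGC overlapped SGM and MEF. The other Slc2a3 probe set gave 0.76. Slc50a1, a sugar carrier of the SWEET family, was 3.04-fold lower (-1.61 ± 0.06; adjusted p = 3.29e-18), with 10.11 and 10.68 in HSC and at most 7.99 on any pluripotent array.

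Nucleotide sugar carriers had 1 of 10 higher and 6 lower, with a median difference of -0.48. Slc35e4, whose substrate is not established, was lower by 1.01 ± 0.12, Slc35b2, which brings the sulfate donor PAPS into the Golgi, by 0.94 ± 0.07, Slc35a1, the CMP-sialic acid carrier, by 0.87 ± 0.09, and Slc35a2, the UDP-galactose carrier, by 0.86 ± 0.07. Slc35a1 read 7.23 to 8.73 in PGC, 8.68 to 9.08 in EGC, 9.10 and 9.38 in ESC and 8.30 to 9.20 in ICM, against 9.63 to 10.27 in SGM and MEF, 8.90 and 8.98 in NSC and 8.29 and 8.42 in HSC. The exception, Slc35b1, which carries ATP into the endoplasmic reticulum, was 0.29 higher, but without NSC and HSC the sign turned and it was called lower in pluripotent cells (-0.18; adjusted p = 0.0317 in limma).

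Of 20 ion carriers, 4 were higher and 9 lower. Slc4a5, a sodium bicarbonate carrier, was 1.88-fold higher (0.91 ± 0.08; adjusted p = 2.82e-11), at group means of 5.11 to 5.93 in pluripotent cells and 4.39 to 4.93 in somatic cells. Slc8a1, a sodium calcium exchanger, was 1.98-fold lower (-0.99 ± 0.06; adjusted p = 2.96e-14), with its highest means in MEF (7.76) and SGM (7.28). Its 2 dimmer probe sets gave 0.03 and -0.03.

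Metal carriers had 3 of 16 higher and 7 lower. Slc41a1, a magnesium carrier, was 2.44-fold lower (-1.28 ± 0.08; adjusted p = 6.84e-14), and it was the 1 called member of the 148 whose pluripotent arrays (5.87 to 7.06) and somatic arrays (7.38 to 9.23) did not overlap (0.676% of members, against 1.73% of all genes). Slc39a8, which imports zinc and manganese, was 0.88 ± 0.07 lower. Slc11a1, a divalent metal carrier known from macrophage phagosomes, was 0.50 ± 0.07 higher, while Slc11a2, the main iron carrier of this family, was 0.17 higher, with the sign turned to a called -0.22 without NSC and HSC.

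Among the 20 Slc25 carriers, 6 were higher and 9 lower. Slc25a39, which takes glutathione into mitochondria, was 1.70-fold higher (0.77 ± 0.07; adjusted p = 2.78e-10), although NSC (11.03 and 10.67) reached the level of PGC (10.47 to 11.21). Slc25a15, the ornithine carrier, was 0.74 ± 0.07 higher. Slc25a20, which exchanges carnitine and acylcarnitine for fatty acid oxidation, was 2.04-fold lower (-1.03 ± 0.05; adjusted p = 8.75e-17). It was lowest in PGC (7.27 to 7.99) and highest in NSC (10.02 and 10.09), with ICM (9.43 to 9.79) above SGM and MEF (8.79 to 9.14). The ADP/ATP carriers Slc25a4 and Slc25a5 were 0.21 and 0.26 higher, but without NSC and HSC the sign turned for Slc25a4 (-0.25, called). The Slc25a5 value comes from a probe set shared by related sequences, and with only plain _at probe sets it was 0.08 and not called (adjusted p = 0.183). Slc25a1, the citrate carrier, was 0.36 higher, and its other probe set gave -0.36.

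Of the 40 remaining carriers, 10 were higher and 13 lower. Slc27a2 was 2.44-fold higher (1.29 ± 0.07; adjusted p = 2.11e-15), from the ESC and EGC arrays given above. Slc29a1, a nucleoside carrier, was 0.45 ± 0.07 higher. Slc22a17, known as a receptor for lipocalin 2, was 2.52-fold lower (-1.34 ± 0.06; adjusted p = 2.31e-16), and by 0.35 without NSC and HSC. Slc19a1, the reduced folate carrier, was 0.36 lower, a call lost without NSC and HSC (-0.03). The partner protein Slc9a3r1, a scaffold for transporters at the membrane, was 0.99 ± 0.06 higher. The plot of differences by class shows the spread of each class around 0.

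**Figure D3:**
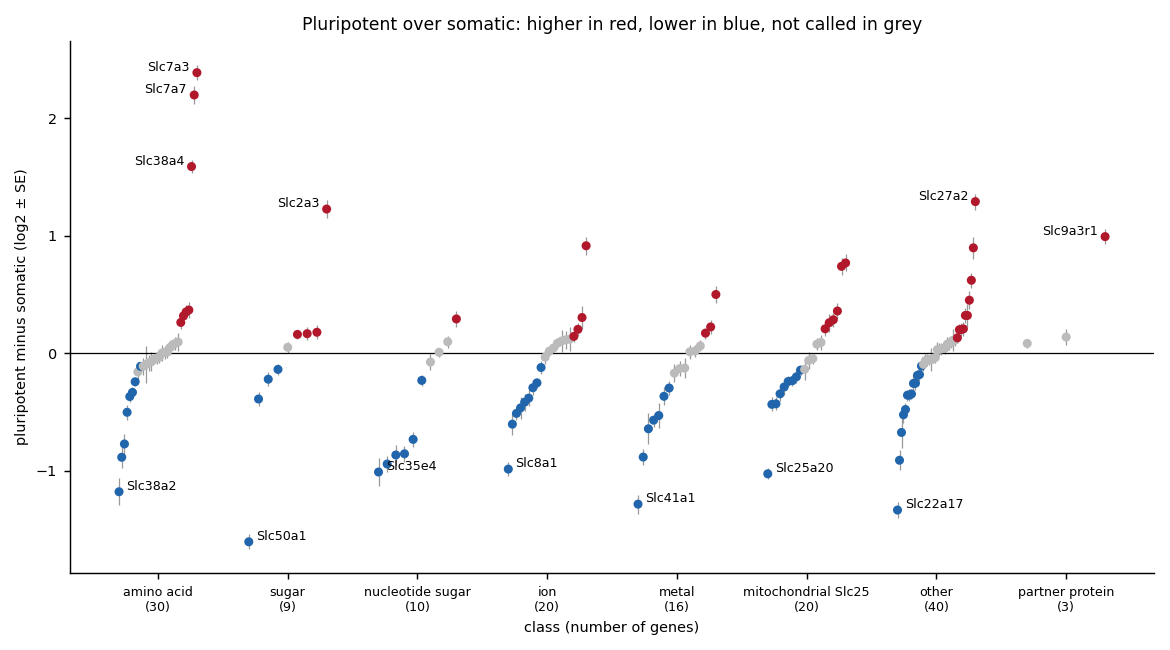
Differences between the mean of 6 pluripotent and the mean of 4 somatic groups (log2 ± SE) for 148 Slc genes by class; red and blue points were called higher and lower, grey points were not called. The amino acid class holds the 3 largest rises, from 1.59 to 2.39, and Slc50a1 of the sugar class the largest fall, at -1.61.

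**Figure D4:**
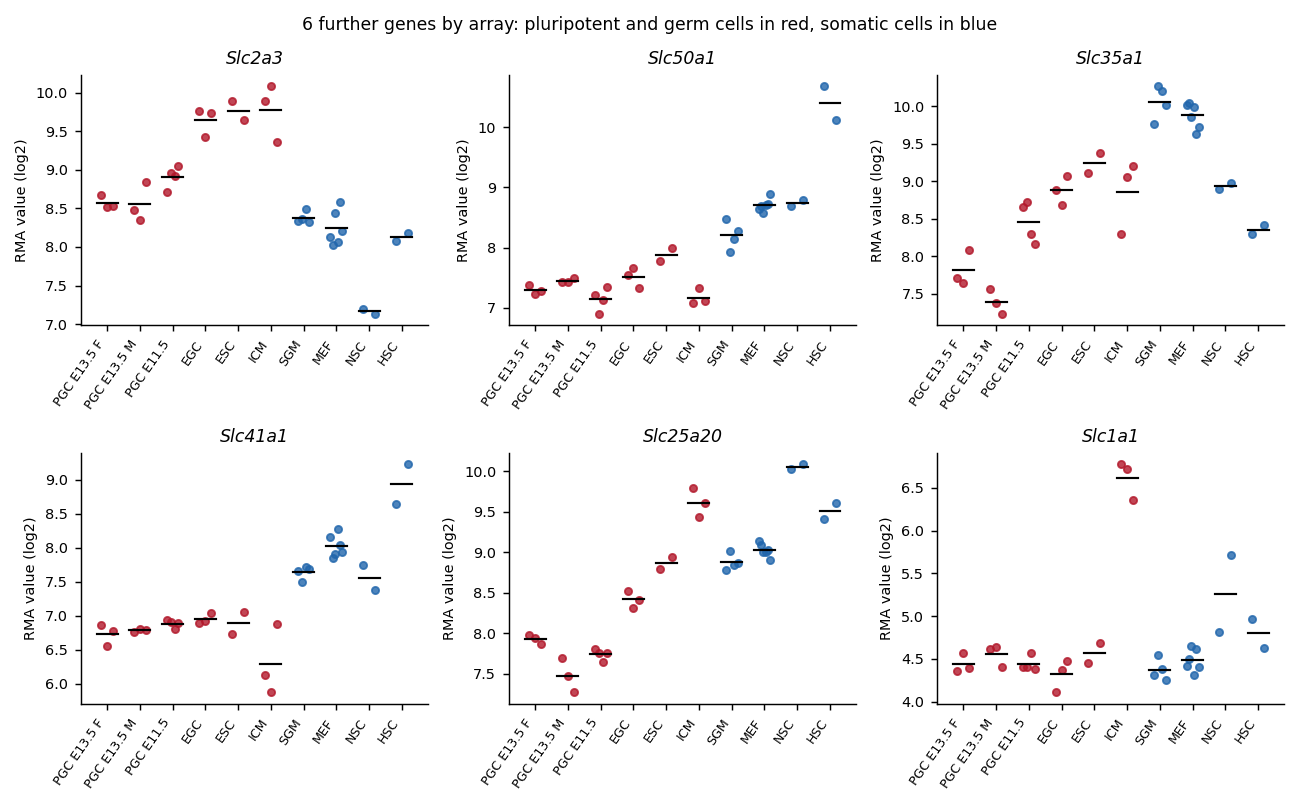
Authors' log2 values on each of 32 arrays (points) with group means (bars) for Slc2a3, Slc50a1, Slc35a1, Slc41a1, Slc25a20 and Slc1a1; pluripotent groups are red and somatic groups blue. Slc41a1 arrays of the 2 sets of groups do not overlap, and Slc1a1 stands above 6 in ICM alone.

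Next, the E11.5 germ cells were compared with the reporter-negative cells of the same gonad and mesonephros. In limma's test, 30 members were higher in PGC (23.2% of all genes) and 46 lower (26.9%), of which 6 and 9 by at least 2-fold (8.73% and 7.87%). Of 30 amino acid carriers 6 were higher and 9 lower, and 3 light chains were among the larger rises. Slc7a7 was 2.63-fold higher and Slc7a5 read 10.38 to 10.77 in PGC, against 9.27 to 9.42 in SGM (1.19 ± 0.11 log2; adjusted p = 7.40e-10). Slc7a6 read 7.08 to 7.72 in PGC, against 6.26 to 6.43 in SGM (1.16). Slc25a39 (1.16) and, by its brighter probe set, Slc25a1 (1.11) also rose. Of 20 Slc25 carriers 8 were higher in PGC and 5 lower, among them Slc25a20 (-1.14). The largest rise was that of the partner protein Slc9a3r1, at 10.05 to 10.33 in PGC, against 8.37 to 8.51 in SGM (1.75 ± 0.12; adjusted p = 4.79e-13).

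The largest falls were those of Slc4a1 and Slc39a8. Slc4a1, the anion exchanger of red blood cells, read 6.43 to 6.78 in PGC, against 7.86, 8.35, 8.92 and 9.33 in SGM (-2.01 ± 0.17; adjusted p = 1.235e-10). All 4 measured erythroid markers were lower in PGC as well, and their mean level was 6.77 to 8.43 on PGC arrays and 11.6 to 12.2 on SGM arrays; their part in the Slc4a1 difference was not tested. Slc39a8 read 6.36 to 6.70 in PGC, against 8.13 to 8.80 in SGM (-2.01). Slc6a8 was 1.71 lower in PGC by its brighter probe set, with 0.09 from the other. Slc35a1 was 1.60 lower, at 8.17 to 8.73 in PGC, against 9.76 to 10.27 in SGM. Slc38a2 was 1.38 lower. Actin differed between its 3′ and 5′ ends by 0.81 to 1.088 on PGC arrays and 0.645 to 0.805 on SGM arrays. For Gapdh the values overlapped, at 3.21 to 3.668 and 2.748 to 3.221. The part of these controls in the Slc differences was not tested.

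Between E11.5 and E13.5, female PGC had 21 members higher (16.3% of all genes) and 21 lower (15.2%) in limma's test. Of 30 amino acid carriers 3 were higher and 8 lower, and they held the largest rise and the largest fall. By its brighter probe set, Slc6a8 read 8.72 to 8.93 in female E13.5 PGC, against 7.34 to 7.69 at E11.5 (1.31 ± 0.16; adjusted p = 8.29e-07). Slc38a2 was 4.19-fold lower in female E13.5 PGC (-2.07 ± 0.23; adjusted p = 1.44e-07), Slc7a7 was 1.09 lower, Slc38a4 was 1.03 lower and Slc7a6 was 0.85 lower. Slc25a4 was 0.81 lower, at 12.92, 12.96 and 12.9985 in female E13.5 PGC, against 13.63 to 13.92 at E11.5. Rises of fatty acid carriers were smaller, with Slc27a3 at 0.77 and Slc27a4 at 0.67. Those of Slc22a23 (0.78) and Slc4a3 (0.71) were each lost without a single array, Slc22a23 without PGC E11.5 replicate 2 (0.76, adjusted p = 0.0508) or female replicate 3 (0.67, adjusted p = 0.0845), and Slc4a3 without female replicate 1 (0.57, adjusted p = 0.0552). Of 5 fibroblast and 4 erythroid markers, Dcn (0.80) and Hba-a1 (1.30) were also called higher in female E13.5 PGC, and the means of the lists were 7.88 to 8.19 and 7.79 to 8.19 on female E13.5 arrays, against 7.52 to 8.01 and 6.77 to 8.43 at E11.5. The array means of 5 gonad and mesonephros markers, with Wnt4 called higher (0.54), were 6.35 to 6.47 on female E13.5 arrays, against 6.19 to 6.335 at E11.5, and did not overlap. Of 5 endothelial markers Emcn (0.72) and Cdh5 (0.36) were called higher. The part of these lists in the Slc differences was not tested.

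In male PGC, 49 members were higher at E13.5 (31.7% of all genes) and 23 lower (20.7%). The median over all genes was itself 0.15 higher at E13.5. With each array centred on its median the split was 26 higher and 24 lower. The falls were larger than the rises. Slc38a4 was 3.39-fold lower in male E13.5 PGC (-1.76 ± 0.12; adjusted p = 2.82e-11). Slc35a1 read 7.23 to 7.56 in male E13.5 PGC, against 8.17 to 8.73 at E11.5 (-1.07). Slc30a5, a zinc carrier of the secretory pathway, was 1.01 lower and Slc20a1, a phosphate carrier, was 0.87 lower. Slc38a2 was 0.91 lower by its brightest probe set, but as a mean of its probe sets the difference was -0.14 and not called (adjusted p = 0.108 in limma). The rises reached 0.69 for Slc11a1, which read 7.85 to 8.15 in male E13.5 PGC, against 7.20 to 7.39 at E11.5. The count of calls was 46 without PGC E11.5 replicate 2 and 41 without male replicate 3, in place of 72. In male E13.5 PGC Dcn (1.70), Col1a2 (0.56) and Hba-a1 (1.84) were called higher too, with the fibroblast list at 8.18 to 8.41 and the erythroid list at 8.11 to 8.45 on male arrays. Of the gonad and mesonephros markers Wt1 (0.42) and Pax2 (0.31), and of the endothelial markers Emcn (0.80), Cdh5 (0.59) and Kdr (0.28), were called higher, and neither list overlapped between times, at 6.47 to 6.59 and 6.64 to 6.84 on male arrays, against 6.19 to 6.335 and 6.25 to 6.56 at E11.5. The 3′ to 5′ difference of actin was 0.21 to 0.508 on male arrays, against 0.81 to 1.088 at E11.5. That of Gapdh overlapped, at 3.106 to 3.982 and 3.21 to 3.668. The part of these measures in the Slc differences was not tested. Since both E13.5 groups were set against the same E11.5 arrays, the direct comparison follows.

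Female and male E13.5 PGC differed in 14 members in limma's test, 7 higher in females (6.29% of all genes) and 7 lower (2.33%). By class, 6 were amino acid carriers, 4 metal carriers, 2 Slc25 carriers and 2 nucleotide sugar carriers. Arrays of the 2 sexes did not overlap for 55 of 148 members (37.2%), the 14 among them, nor for 34.8% of all genes. Slc38a2 was 2.23-fold lower in females (-1.16 ± 0.24; adjusted p = 0.00209), whereas Slc38a4 was 1.67-fold higher in females (0.74 ± 0.12; adjusted p = 2.25e-04). Slc6a8, on chromosome X, was 2.06-fold higher in females by its brighter probe set (1.04 ± 0.17; adjusted p = 1.59e-04), with 8.72 to 8.93 in females and 7.64 to 7.81 in males. Slc7a3, also on chromosome X, was not called, with means of 10.31 in females and 10.37 in males. Slc7a7 was 2.00-fold lower in females (-0.999 ± 0.17; adjusted p = 2.29e-04).

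Slc39a7, which releases zinc from the endoplasmic reticulum, read 9.73, 9.73 and 9.56 in female E13.5 PGC and 10.48, 10.49 and 10.27 in male E13.5 PGC (-0.74 ± 0.17; adjusted p = 0.00472). Slc7a5 was 0.56 lower in females. Slc30a9, also of a zinc carrier family, was 0.61 higher in females, though without male replicate 3 the adjusted p was 0.0577. Slc25a36, a mitochondrial pyrimidine nucleotide carrier (0.65), Slc35d1, a carrier of UDP-glucuronic acid (0.48), and Slc11a1 (-0.56) were each lost on leaving out any of several single arrays, with adjusted p-values up to 0.214, 0.166 and 0.139. Among these arrays was female replicate 3 for all of them. The count of calls was 8 without male replicate 3. The mean level of 5 fibroblast markers was 7.88 to 8.19 on female and 8.18 to 8.41 on male arrays, with 1 of 5 (Dcn) called lower in females. The 3′ to 5′ difference of actin was 0.665 to 1.254 on female and 0.21 to 0.508 on male arrays. That of Gapdh overlapped, at 3.571 to 4.032 and 3.106 to 3.982. The part of these measures in the Slc differences was not tested.

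ESC were compared with ICM, the tissue from which such lines are derived. In limma's test, 19 members were higher in ESC (15.3% of all genes) and 23 lower (12.6%), of which 3 and 9 by at least 2-fold (2.48% and 3.6%). Slc38a2 and Slc27a2 stood out among the rises. Slc38a2 was 10.9-fold higher in ESC (3.45 ± 0.27 log2; adjusted p = 1.51e-10), and Slc27a2 read 8.58 and 8.83 in ESC, against 5.83, 5.79 and 5.50 in ICM (3.00 ± 0.16; adjusted p = 1.105e-13). Slc12a2, a sodium potassium chloride carrier, was 1.03 higher at 10.21 and 10.20 in ESC, against 8.89 to 9.54 in ICM. Slc7a7 (0.93) and Slc50a1 (0.72) also rose.

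Falls of at least 2-fold came from several classes. Slc6a8 was 5.18-fold lower in ESC by its brighter probe set (-2.37 ± 0.19). Slc1a1, a glutamate carrier, read 4.45 and 4.69 in ESC, against 6.78, 6.71 and 6.35 in ICM (-2.04 ± 0.18; adjusted p = 9.73e-10), and its other probe set fell by 0.77. Slc5a6, which takes up biotin and pantothenate, read 8.45 and 8.39 in ESC, against 10.34, 10.85 and 9.64 in ICM (-1.86). Slc46a1, a folate carrier, read 6.05 and 6.24 in ESC, against 8.29, 7.91 and 6.96 in ICM (-1.58). Slc15a2, a peptide carrier, was 2.09 lower, but its ICM arrays read 7.56, 9.89 and 7.31, and with only ESC and ICM in the fit the adjusted p was 0.109. Of 16 metal carriers 6 fell, among them the zinc exporter Slc30a1 (-0.84) and the zinc importer Slc39a1 (-1.41), whose other probe set gave 0.21.

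Of 5 trophectoderm markers, Eomes, Krt18 and Krt8 were lower in ESC, and the mean of the list was 6.55 to 6.97 on ESC arrays and 7.07 to 9.14 on ICM arrays. ICM replicate 3, the array with low Eomes and Krt18, also had the lowest ICM value of Slc1a1, Slc5a6, Slc46a1 and Slc6a8. Without it the differences were -2.17 for Slc1a1, -2.17 for Slc5a6, -1.96 for Slc46a1, -2.63 for Slc6a8 and 3.38 for Slc38a2, all still called. The 3′ to 5′ difference of Gapdh was 2.461 to 2.845 on ESC and 3.768 to 4.169 on ICM arrays. That of actin overlapped, at 1.37 to 1.748 and 1.209 to 1.861. The part of these markers and controls in the Slc differences was not tested. The count of calls, 42, was 25 without ESC replicate 1, 27 without ESC replicate 2 and 48 without ICM replicate 3.

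EGC (passage 19) and ESC (passage 9 to 14) were both male lines in LIF and serum but of germ cell and blastocyst origin. They differed in 46 members in limma's test, 24 higher in EGC (20.8% of all genes) and 22 lower (18.6%). At least 2-fold differences numbered 4 higher (2.92%) and 3 lower (5.51%). Of 30 amino acid carriers 8 were higher and 2 lower. Slc7a3 was 4.53-fold higher in EGC (2.18 ± 0.16; adjusted p = 9.60e-11). Slc6a15, a carrier of branched-chain amino acids and proline, read 9.07, 8.95 and 9.31 in EGC, against 7.20 and 7.72 in ESC (1.65 ± 0.14; adjusted p = 1.37e-09). Slc38a2 was 1.19 higher and Slc6a6 0.91 higher, Slc6a6 at 10.06 to 10.26 in EGC, against 9.18 and 9.36 in ESC and with 0.06 from its other probe set. Slc39a1 was 1.10 higher, with 0.29 from its other probe set.

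The 3 largest falls were those of ion and metal carriers, although 2 ion carriers were higher and 2 lower, and 3 metal carriers higher and 2 lower. Slc12a2 read 8.55, 8.84 and 9.28 in EGC, against 10.21 and 10.20 in ESC (-1.32 ± 0.22; adjusted p = 4.645e-05). Slc20a1 read 9.66 to 10.02 in EGC, against 11.07 and 11.04 in ESC (-1.20). Slc39a6, a zinc importer, was 1.07 lower, Slc25a17, a peroxisomal carrier of coenzyme A and nucleotides, was 0.86 lower and Slc38a4 was 0.84 lower. Of 5 fibroblast markers, 2 were higher in EGC, Dcn by 1.19 and Col1a2 by 0.63, and the mean of the list was 8.26 to 8.40 on EGC arrays and 7.78 to 8.06 on ESC arrays, against 12.511 to 12.975 on MEF arrays. Of 4 erythroid markers, Hba-a1 (1.06) and Hba-x (0.78) were higher in EGC, with the list at 7.70 to 7.89 on EGC arrays and 7.24 to 7.27 on ESC arrays. Gapdh differed between its 3′ and 5′ ends by 3.066 to 3.235 on EGC arrays and 2.461 to 2.845 on ESC arrays. For actin the values overlapped, at 1.721 to 1.988 and 1.37 to 1.748. The part of both lists, these controls and passage in the Slc differences was not tested. The plot of 3 comparisons gives the leading members with their errors.

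**Figure D5:**
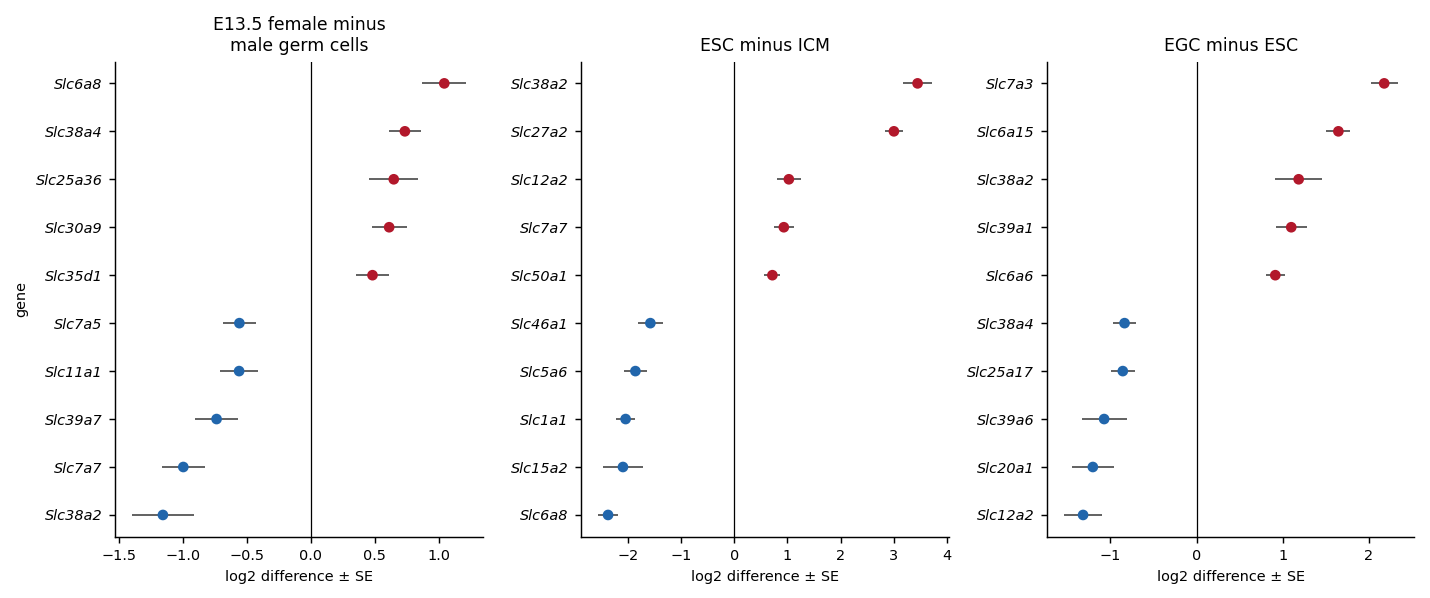
Log2 differences with SE of the called Slc genes that rose most (5) and fell most (5) and whose arrays do not overlap, for female over male E13.5 germ cells, ESC over ICM and EGC over ESC. Slc38a2 is lower in female germ cells by 1.16, 3.45 higher in ESC than ICM and 1.19 higher in EGC than ESC.

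Finally, members were tested for being higher in 1 group than in each of the other 9. In limma's test 32 of 148 were (21.6%, against 23.8% of all genes). HSC held 10 (8.41% of all genes), led by Slc50a1, 3.15-fold above the next group, Slc35d1 (2.37-fold) and Slc25a28 (2.30-fold), a carrier of iron into mitochondria. The macrophage list stood at 8.17 to 8.20 on HSC arrays, against 6.28 to 7.40 on all others. NSC held 8 (4.08%). Slc22a17 read 11.72 and 11.34 there, against at most 9.38 elsewhere (5.47-fold above the next group), and Slc22a23, an orphan carrier, read 7.96 and 7.75, against at most 6.50. Slc35b2 was 2.04-fold above the next group in NSC, and 4 Slc25 carriers (Slc25a14, Slc25a25, Slc25a10 and Slc25a20) were also highest in NSC. HSC and NSC have 2 arrays each, and their control probe sets followed each other but not the other 8 groups, as given above. What part this had in their calls was not tested.

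MEF held 5 (7.05%), led by Slc44a2, a carrier related to choline transport, which read 8.80 to 9.39, against at most 7.82 elsewhere, followed by Slc6a6 (1.59-fold above the next group) and the glutamate carrier Slc1a6 (1.46-fold). SGM held Slc4a1 (3.08-fold) and Slc39a8 (2.36-fold), where 1.76% of all genes were highest. Among pluripotent groups, ICM held 5 (1.66%): Slc1a1 (2.55-fold), Slc44a1, a choline carrier at 11.16 to 11.90 in ICM (2.43-fold), Slc5a6 (1.98-fold), Slc7a6 (1.72-fold) and Slc30a1 (1.59-fold). Among ICM arrays, Slc1a1 and Slc5a6 were lowest in replicate 3, the array with low Eomes and Krt18. The part of trophectoderm cells in these 5 calls was not tested. EGC held Slc7a3 (4.53-fold) and Slc6a15 (2.67-fold), where 0.485% of all genes were highest. By limma, 0 members were called highest in PGC E11.5 (0.17%), female PGC (0.206%), male PGC (0.0%) or ESC (0.0%), with 2, 2, 5 and 1 at an unadjusted p under 0.05.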

How the data were processed

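RNA was column-purified, treated with DNase, amplified in 2 rounds and biotin-labelled, per the labels' protocols. Deposited values are log2 signals of probe sets that the authors computed with RMA, per the submitters' processing notes (no version given), and any detection call was not used here. On 6 MEF arrays 13 probe sets exceed 16, the log2 limit of the scanner, so a further adjustment is possible. Of 34 columns, PGC E11.5 replicate 5 and ESC replicate 3 equal the mean of the other columns of their group (tolerance 1e-06) and were left out, which left 32 arrays. Array medians ran from 7.17 to 7.37; the number of arrays limits the precision. The labels call replicates biological.

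Each gene took its brightest probe set with a single symbol (8251 genes; 29 of 148 members have several). limma 3.58.1 (R 4.3.3; lmFit, eBayes) estimated the 10 group means with 22 residual degrees of freedom, and p-values were adjusted over all genes by Benjamini-Hochberg (threshold 0.05). A gene called highest in 1 group had to exceed each other group, by its largest one-sided p. Errors of differences are SE, other errors SD. The fit was also run on simulated arrays with independent noise of the fitted spread, which checks the code and not the arrays' own variation. No batch is given in the labels.

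The members, classes and marker lists were chosen with earlier results of these data known. Named genes are, per comparison, the 5 largest rises and falls among called members with non-overlapping arrays, the 3 widest gaps per group, the largest called rise and fall per class and a fixed list (some of whose genes are not analysed here); a few others stand beside them as examples of a class, chosen after their values were seen. Replicate numbers have no stated meaning across groups in the labels, so they were not taken as pairs. Residuals of like-numbered arrays correlated at -0.566 to 0.521 over pairs of groups. For PGC E11.5 and SGM they correlated at -0.35, 0.52, 0.17 and 0.33, which cannot decide whether those arrays were matched. Sequences are RefSeq's (GRCm38.p6). Alternatives covered the replicate block, scaling, array weights, the choice of probe set, a filter on dim genes, the groups in the fit and each array left out.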

Additional observations from a re-analysis of the deposited data

Results flagged for a closer look

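Among named genes, 186 sets of 4 or 6 arrays (62 genes in PGC E11.5, SGM and MEF) were searched for a single array far from the rest, and 7 were found; chance gives about 1 in 20. PGC E11.5 replicate 4 gave 3 of them, with Slc39a6 at 9.11 (the others 9.96 to 10.04), Slc7a6 at 7.08 (the others 7.62 to 7.72) and Slc25a39 at 11.2 (the others 10.6 to 10.7). PGC E11.5 replicate 3 read Slc1a1 at 4.57, against at most 4.41 on the others. SGM replicate 2 read the dim gene Slc7a11 at 3.97, against at most 3.92. MEF replicate 5 read Slc4a1 at 6.71, against at most 6.52, and MEF replicate 6 read Slc7a6 at 6.26, against at least 6.62.

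Because both E13.5 groups share the E11.5 arrays, the difference between their changes is the comparison of female with male E13.5 germ cells again, and the 10 genes here are those chosen for it. They are given as a description with no further test. The female change exceeded the male one by 1.04 for Slc6a8 (1.31 in females, 0.27 in males), 0.74 for Slc38a4 (-1.03 in females, -1.76 in males), 0.65 for Slc25a36, 0.61 for Slc30a9 and 0.48 for Slc35d1. It fell short by -1.16 for Slc38a2 (-2.07 in females, -0.91 in males), -0.999 for Slc7a7 (-1.09 in females, -0.09 in males), -0.74 for Slc39a7, -0.56 for Slc11a1 and -0.56 for Slc7a5. The calls of Slc25a36, Slc35d1 and Slc11a1 were each lost on leaving out single arrays, and that of Slc30a9 without male replicate 3.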

How the results depend on the processing

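With only brighter genes tested, the counts of members called were 49 for pluripotent over somatic, 43 for PGC E11.5 over SGM (22 higher, 21 lower), 25 for female E13.5 over E11.5 PGC (9 higher, 16 lower), 30 for male (13 higher, 17 lower), 21 for ESC over ICM, 23 for EGC over ESC and 19 for genes highest in 1 group; fewer genes were tested. Array weights gave 66 for female E13.5 over E11.5 PGC (40 higher, 26 lower) and 24 for female over male (15 higher, 9 lower); the cause was not tested. Fitting only ESC and ICM gave 16 (5 higher, 11 lower); for pluripotent over somatic that setting is the reported fit. The replicate number as a block gave 93, 78, 43, 70, 15, 43 and 45 for the 7 comparisons in the order reported and 33 for genes highest in 1 group, within 1.5 times every count. Leaving out 1 array at a time gave 90 to 96, 68 to 80, 31 to 47, 41 to 72, 8 to 15, 25 to 48, 32 to 45 and 28 to 36 in the same order; without ESC replicate 2, EGC over ESC split into 21 higher and 11 lower.

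For pluripotent over somatic, the sign turned without NSC and HSC for Slc35b1 (-0.18), Slc7a1 (-0.23), Slc7a11 (-0.087), Slc3a2 (0.38), Slc25a4 (-0.25) and Slc11a2 (-0.22), without MEF for Slc1a5 (0.043) and Slc6a8 (0.52), and without SGM for Slc6a8 (0.031), Slc20a1 (-0.11) and Slc4a1 (0.017); leaving out single arrays moved Slc7a1 between -0.0676 and 0.0698. Slc38a2 in male E13.5 over E11.5 PGC was -0.14 and not called as a mean of its probe sets. Of the alternatives for named genes, 2821 of 2880 kept direction and call.

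ESC, NSC and HSC have 2 arrays each and the table holds no background measure per probe set.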
